A study of Mus musculus with 3 samples.

Results

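Ret, its GDNF-family ligands and their co-receptors were examined in the embryonic mouse ureter as 7 genes: the ligand genes Gdnf, Nrtn and Artn, the receptor gene Ret, and the co-receptor genes Gfra1, Gfra2 and Gfra3. The members were every probe set whose platform annotation names 1 symbol equal to one of these, which gave 14 probe sets of 34958 with 1 symbol, for 7 of 18194 named genes. The 3 samples form 1 group, whole ureters of wild-type FVB/N embryos at embryonic day 15 (Theiler stage 23, sex given as unknown), called replicates 3, 8 and 9. No mutant, treated or second-stage sample was analysed, so every value below is a level in this tissue with its spread over 3 arrays. The ureters were cut out between the renal pelvis and the insertion into the bladder, were not pooled per the labels, and gave total RNA that went through 2 rounds of amplification before hybridisation to Affymetrix Mouse Genome 430 2.0 arrays. Whether each sample was a different embryo or litter is not stated in the labels, and part of the spread may be technical. RNA of the whole ureter mixes epithelium, mesenchyme, muscle, vessels and nerves, and in such RNA fewer cells of a type and less RNA per cell cannot be told apart.

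Ret is a receptor tyrosine kinase that the GDNF-family ligands do not bind alone. Each ligand first binds a co-receptor anchored to the cell surface by a lipid tail, with Gdnf preferring Gfra1, Nrtn preferring Gfra2 and Artn preferring Gfra3, and the pair then brings Ret molecules together. In the developing urinary tract Gdnf from the mesenchyme acts on Ret and Gfra1 of the ureteric bud, which drives its outgrowth and branching, and the same receptors serve enteric, autonomic and sensory neurons and their precursors.

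A gene was counted as above background when its signal, a linear intensity, exceeded on each of the 3 arrays the 95th percentile of 43 measured reference genes that mark organs not included in the cut piece (among them stomach, pituitary, retina and testis). That background signal was 302, 294 and 473 in replicates 3, 8 and 9. Of the reference genes themselves, 2 were above it, the pancreatic elastase gene Cela1 and the cerebellin gene Cbln1. The level of a gene is that of the probe set with its highest mean log2(signal + 1). Probe sets also differ in how brightly they bind, so signals of different probe sets were not ranked against each other. The tissue label was checked against 10 smooth muscle and mesenchyme markers and 10 urothelial markers, of which 7 and 7 were above background (55.6% of all named genes were), with the uroplakin genes Upk1a and Upk2 below it on every array.

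Of the 7 genes, 6 were above background on all 3 arrays, beside 55.6% of all named genes. They were Ret, 2 of the 3 ligand genes (Gdnf and Nrtn) and all 3 co-receptor genes, whereas Artn was below background on every array. After averaging over all probe sets of each gene, Ret, Gfra1 and Gfra2 lost the call, which left 3 of 7 beside 43.0% of all named genes. By probe set the picture was less uniform. Of the 14 probe sets, 8 were above background on all arrays, 1 on 1 array and 5 on none, beside 44.2% above background among all probe sets with 1 symbol. Each of the 3 genes with several probe sets, Ret, Gfra1 and Gfra2, had at least 1 that was not above background, as did 74.9% of the 6645 genes on the array with several probe sets and at least 1 above background.

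**Figure D1:**
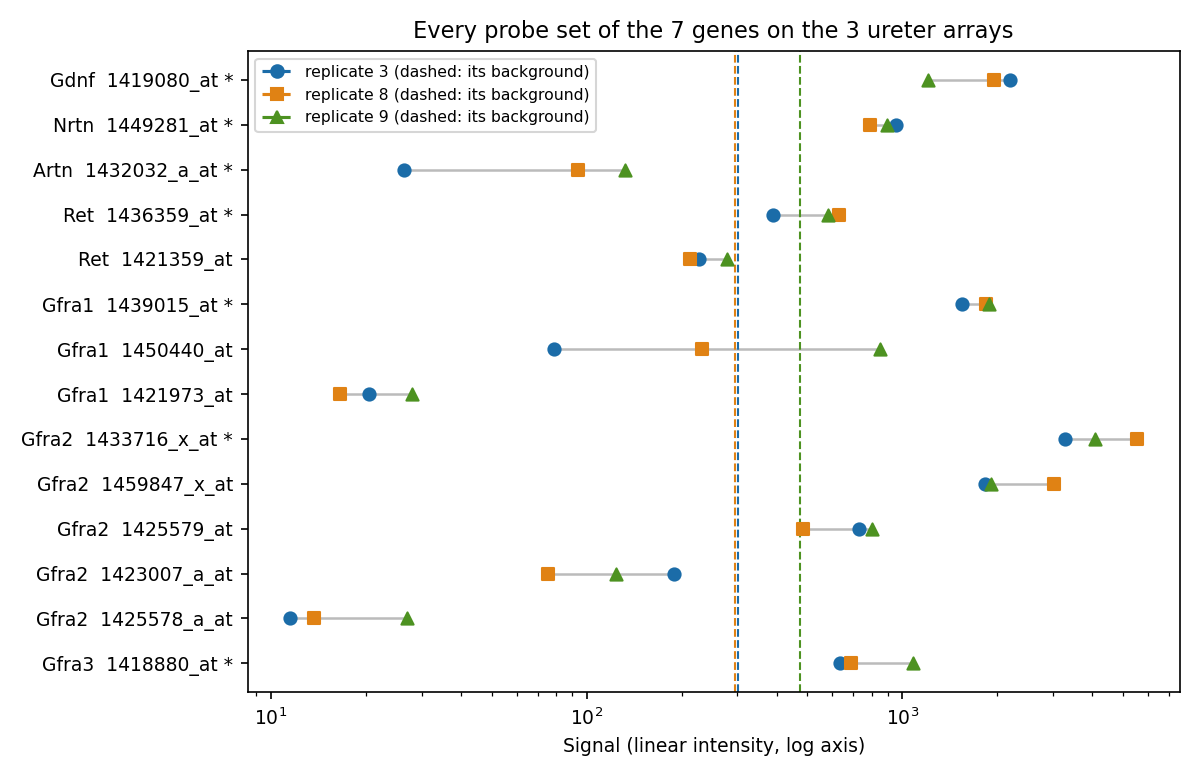
Signal of each of the 14 probe sets (linear intensity on a log axis) in replicates 3, 8 and 9, with dashed lines at each array's background and an asterisk at the probe set that represents the gene. The Gdnf, Nrtn and Gfra3 points and 1 or more probe sets of Ret, Gfra1 and Gfra2 lie right of their own dashed lines, while the Artn points, between 26.4 and 132, lie left of them.

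Gdnf, the ligand that induces the ureteric bud, was clearly above background. Its 1 probe set, 1419080_at, gave signals of 2192, 1949 and 1207 in replicates 3, 8 and 9, a mean of 1783 ± 513 (SD, n = 3, as for every mean below). Replicates 3 and 8 were close and replicate 9 was low, and in each array the signal was higher than that of all 43 reference genes. Relative to the background of its own array the signal was 7.27-fold, 6.64-fold and 2.55-fold in the same order. The range on the log2 scale was 0.86, the widest of the 6 family genes above background.

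RefSeq annotates 2 starts of Gdnf in mouse assembly GRCm38.p6, and the array gives 1 value for the gene, which cannot be divided between them. The 250 bases before each start are shown because they differ in the TATA-box letters TATAAA, printed in capitals. The first window is chr15:7809798-7810047 and the second chr15:7813477-7813726, both on the plus strand and written 5′ to 3′.
Gdnf, upstream start: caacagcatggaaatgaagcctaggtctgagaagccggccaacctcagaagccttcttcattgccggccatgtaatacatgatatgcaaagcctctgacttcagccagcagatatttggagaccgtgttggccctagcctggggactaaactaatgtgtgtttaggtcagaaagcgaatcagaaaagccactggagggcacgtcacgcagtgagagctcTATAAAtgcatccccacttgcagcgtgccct
Gdnf, downstream start: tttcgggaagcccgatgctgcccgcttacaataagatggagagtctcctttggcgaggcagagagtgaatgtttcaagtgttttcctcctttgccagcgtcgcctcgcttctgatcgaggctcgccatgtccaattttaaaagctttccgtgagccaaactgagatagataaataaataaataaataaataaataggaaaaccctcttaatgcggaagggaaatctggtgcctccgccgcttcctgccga
The upstream window holds TATAAA once, beginning 31 bases before the start, and the downstream window holds it on neither strand. Searched on both strands, TATAAA was present in 12.4% of 32851 windows of this length. The upstream window has 7 CG dinucleotides and 50.8% G and C bases, and the downstream window 14 and 46.8%. The windows of Nrtn, Artn and Gfra1 have no TATAAA, and with Gdnf these are the 4 of the 7 genes with a window in the table used. A match of letters does not show a bound site, and its absence says only that these letters are not in the window.

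Nrtn encodes neurturin, the preferred ligand of Gfra2. Its probe set 1449281_at gave signals of 956, 787 and 893 in replicates 3, 8 and 9 (mean 879 ± 85.6). The 3 arrays were close together, with a log2 range of 0.28, and each exceeded all reference genes. Because background was higher in replicate 9, the signal over background was 3.17-fold, 2.68-fold and 1.89-fold in the same order.

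Artn encodes artemin, the ligand of Gfra3, known as a guidance and survival factor of sympathetic and sensory neurons. Its probe set 1432032_a_at gave signals of 26.4, 93.9 and 132 in replicates 3, 8 and 9 (mean 84.1 ± 53.5). All 3 lay at or under 0.32 of the array's background, and 34, 19 and 11 of the 43 reference genes were brighter in replicates 3, 8 and 9. Artn was therefore not detectable above background with this probe set, which is not evidence that its transcript was absent.

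The receptor gene Ret was above background on all 3 arrays, by a small margin in replicates 3 and 9. Probe set 1436359_at gave signals of 388, 628 and 581 in replicates 3, 8 and 9 (mean 532 ± 127), that is 1.29, 2.14 and 1.23 times the background of those arrays. Replicate 3 was low and the other 2 were close. The reference genes brighter than Ret numbered 2, 1 and 2 in replicates 3, 8 and 9. The other Ret probe set, 1421359_at, gave 227, 212 and 279 (mean 240 ± 34.9), below background on every array. The 2 probe sets also differed in their highest array, replicate 8 for the first and replicate 9 for the second. With the 99th percentile of the reference genes as background Ret was no longer above it.

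**Figure D2:**
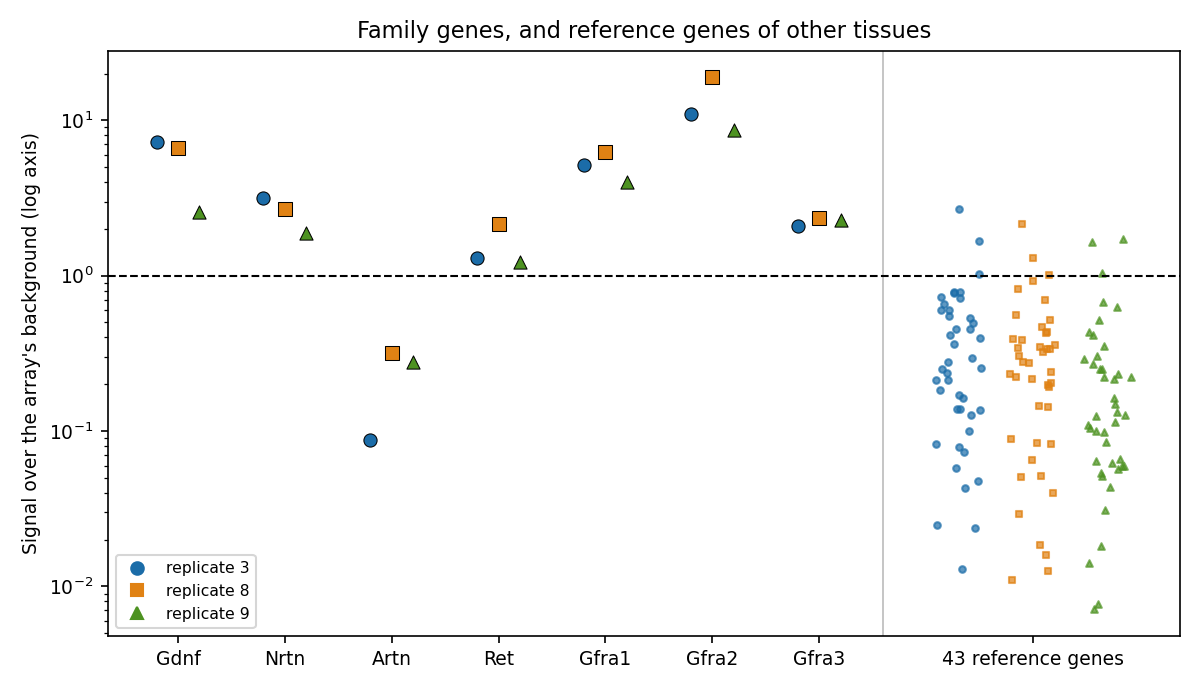
Signal divided by the background of the same array (log axis) for the 7 family genes, at left, and for the 43 reference genes, at right, with 1 marker shape per replicate and a dashed line where signal equals background. Ret sits above the line, between 1.23 and 2.14, and Artn is the 1 family gene below it on all arrays.

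Gfra1, the co-receptor of Gdnf, was measured by 3 probe sets that disagreed. Probe set 1439015_at gave signals of 1546, 1846 and 1886 in replicates 3, 8 and 9 (mean 1759 ± 186), above all reference genes on each array and with a log2 range of 0.29. Probe set 1450440_at gave 78.8, 232 and 850, above background in replicate 9 only. Probe set 1421973_at gave 20.4, 16.6 and 27.9, below background on every array. The platform annotation lists the last 2 with the same sequence accession, and the first with another. With the mean of the 3 probe sets in place of the brightest, Gfra1 was no longer above background.

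Gfra2, the co-receptor of Nrtn, was measured by 5 probe sets. The brightest, 1433716_x_at, gave signals of 3279, 5549 and 4080 in replicates 3, 8 and 9 (mean 4303 ± 1151). Probe set 1459847_x_at gave 1820, 3015 and 1902 (mean 2246 ± 668), and both were highest in replicate 8. The ending _x_at marks probe sets whose probes may also match other sequences, and the platform annotation gives neither of these an accession. Probe set 1425579_at, without that ending, gave 728, 486 and 802 (mean 672 ± 165), above background on all arrays but lowest in replicate 8. The direction in replicate 8 was therefore opposite between the probe sets above background, by 0.40 above and 0.43 below the mean of 3 arrays on the log2 scale (1433716_x_at against 1425579_at). The remaining probe sets, 1423007_a_at (189, 75.2 and 124) and 1425578_a_at (11.5, 13.7 and 27.0), were below background on every array, although 1425578_a_at shares its accession with 1425579_at. With the mean of the 5 probe sets Gfra2, too, was no longer above background. Across the array, the 2 brightest probe sets above background shared their highest replicate for 46.2% of the 3579 genes that have at least 2 such probe sets.

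Gfra3, the co-receptor of Artn and in mouse a gene of peripheral neurons and their precursors, was above background although its ligand gene was not. Probe set 1418880_at gave signals of 635, 690 and 1077 in replicates 3, 8 and 9 (mean 801 ± 241), or 2.10, 2.35 and 2.28 times the background. Replicate 9 was high and the others close. With the 99th percentile of the reference genes as background Gfra3, like Ret, was no longer above it.

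The spread of the family over the arrays was moderate. None of the 6 genes above background had a log2 range of at least 1 over the 3 arrays, beside 15.1% of all genes above background. Their ranges lay between 0.28 and 0.86, with a median of 0.73, beside a median of 0.55 over all genes above background. Of the 6, 2 were highest in each of replicates 3, 8 and 9, beside 3315, 3546 and 3257 of the 10118 genes above background. Ret, Gfra1, Gfra2 and Gfra3 were lowest in replicate 3, as were 3140 of all 10118. With 3 arrays of 1 group no gene of like pattern was sought.

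Some cell type markers varied more between the arrays than the family did. Of 13 measured markers of autonomic neurons and their precursors, 11 were above background, 10 of these were lowest in replicate 3, and their summed signal over all 13 was 16213, 26216 and 47527 in replicates 3, 8 and 9. The transcription factor gene Isl1 gave 2627, 4017 and 9128 in replicates 3, 8 and 9, Hand2 6637, 6130 and 18697, and the neuronal stathmin gene Stmn2 1425, 5676 and 6761. Hand2 and Isl1 had the highest mean signals of the list (10488 and 5257), so the summed signal, above all in replicate 9, depends heavily on these genes. The median deviation of this list from the 3-array mean was -0.81, 0.17 and 0.67 on the log2 scale in replicates 3, 8 and 9. In the same order, deviations were -0.29, -0.17 and 0.47 for Gfra3, -0.43, 0.27 and 0.16 for Ret and 0.34, 0.17 and -0.52 for Gdnf. For Gfra1 they were -0.18, 0.08 and 0.11, for Gfra2 -0.36, 0.40 and -0.04, and for Nrtn 0.13, -0.15 and 0.03. Over 3 arrays of 1 group such values are no measure of likeness. The part of neurons in the levels of the family genes was not tested. Schwann cell and neural crest markers were above background for 5 of 10 measured, beside 55.6% of all named genes. Those above background included Ednrb (11167 ± 777), Erbb3 (3918 ± 593) and Fabp7 (2006 ± 1193). Foxd3, Ngfr, Gfap and Cdh19 were below background on every array. Sox10, singled out after its values were seen, gave 307, 206 and 632 in replicates 3, 8 and 9. It was above background in replicates 3 and 9 but not in replicate 8. The summed signal of the list lay between 18168 and 23606.

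Ret and Gfra1 are known to be active in the kidney's ureteric tip and trunk epithelium. Markers of that epithelium were above background for 9 of 11 measured, beside 55.6% of all named genes. Wnt11 and Etv5 of this list are counted again below as targets of Ret signalling. Wnt9b (49.0, 282 and 200 in replicates 3, 8 and 9) and Aqp2 (125, 33.4 and 28.9) were below background on every array. The summed signal over all 11 was 31136, 50110 and 29993 in replicates 3, 8 and 9. The median log2 deviation of the 9 above background was -0.33, 0.65 and -0.21 in the same order. The epithelial genes Epcam (2586, 8308 and 2414) and Cdh1 (2029, 4767 and 1759) were high in replicate 8. Krt8, a keratin gene of simple epithelia, varied less (20340, 23741 and 17646). Markers of nephrogenic mesenchyme, a known source of Gdnf in the kidney, were above background for 7 of 10, beside 55.6% of all named genes. Cited1 and Hoxd11 were below background on every array. Eya1, Itga8, Sall1, Osr1 and Hoxd11 are counted again below among the regulators that promote the pathway. Six2, singled out after its values were seen, was above background on all 3 (627, 952 and 541 in replicates 3, 8 and 9). Of the 7 markers above background, 5 were highest in replicate 8. Their median deviation on the log2 scale was -0.13, 0.47 and -0.05 in replicates 3, 8 and 9. Summed signals over all 10 were 31601, 34996 and 43369, and without the calpain gene Capn6 (16594, 10619 and 26614) they were 15006, 24377 and 16755. Itga8 (3813, 8473 and 5456) and Eya1 (3949, 7146 and 3665) were highest in replicate 8. Whether RNA of kidney cells contributed to the signals of the family was not tested. Of the other marker lists, endothelial genes were above background for 6 of 8 and gonad and Wolffian duct genes for 2 of 9, with 6 more above it on 1 or 2 arrays.

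**Figure D3:**
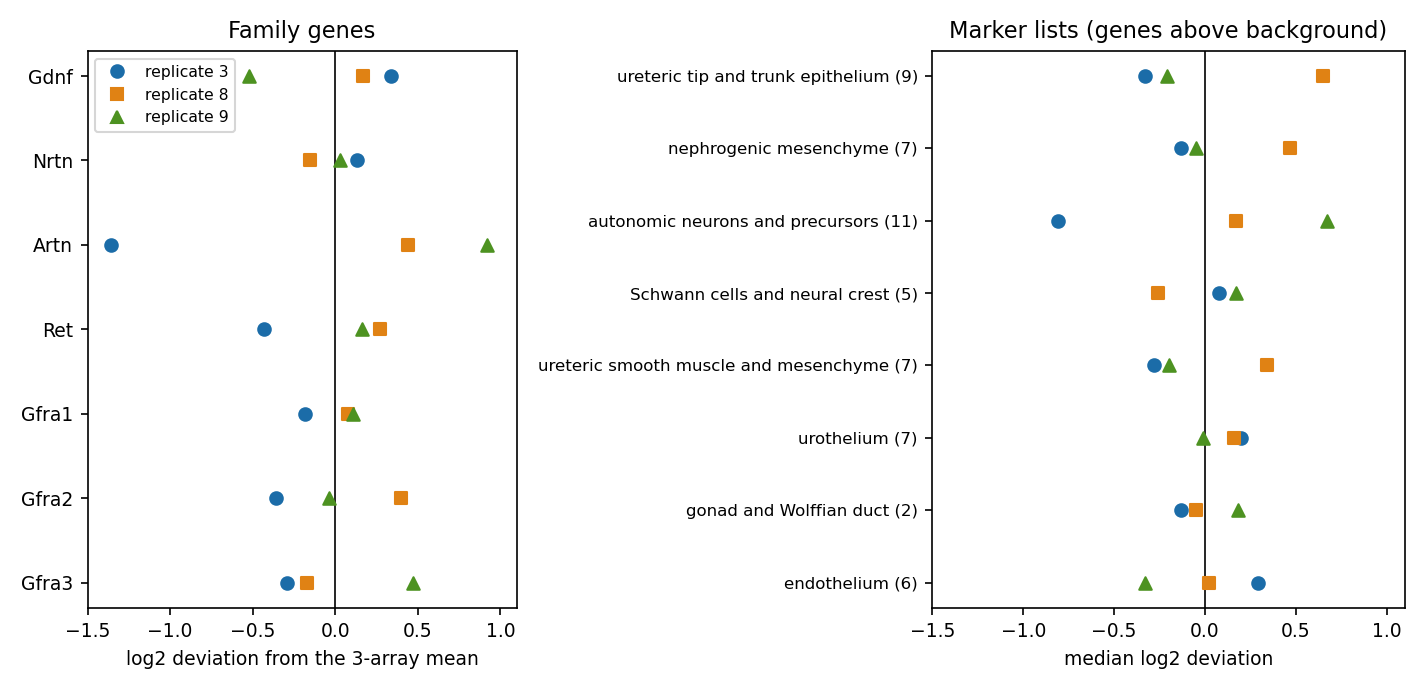
Left, log2 deviation of each family gene from its 3-array mean in replicates 3, 8 and 9; right, the median deviation of each marker list over its genes above background, whose number is in parentheses. The autonomic neuron list spans -0.81 to 0.67, whereas the 6 family genes above background stay between -0.52 and 0.47 and Artn reaches -1.36.

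Of the remaining ligands and receptors linked to the family, 3 of 5 measured genes were above background, close to the 55.6% of all named genes. This list and the pathway lists below were chosen with earlier results of these data known, so their counts are no test of an excess. Pspn, the gene of the ligand persephin, gave 89.6, 46.5 and 116 in replicates 3, 8 and 9, and Gfra4, its co-receptor gene, 199, 195 and 121, all below background. Ncam1, which encodes a cell adhesion molecule that can bind Gdnf without Ret, gave 7201, 15617 and 23047, a log2 range of 1.68, and was lowest in replicate 3. The heparan sulphate proteoglycan gene Sdc3 gave 1110, 872 and 955, and Gas1, a relative of the co-receptors that also serves Hedgehog signalling, 14096, 11236 and 14737. By the brightest probe set of each gene, the ligand and co-receptor pairs Gdnf with Gfra1 and Nrtn with Gfra2 had both genes above background. By the same rule Artn with Gfra3 had the co-receptor gene alone, and Pspn with Gfra4 had neither. These pairings depend on the setting. Gfra1 and Gfra2 lost the call after averaging over all their probe sets, and Gfra3 lost it with the 99th percentile as background.

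Genes that carry the signal inside the cell were above background for 17 of 22 measured, beside 55.6% of all named genes. The adaptor gene Grb10 gave 42707, 36682 and 42059 in replicates 3, 8 and 9, and the phosphatase gene Ptpn11 18110, 18920 and 20527. The docking protein gene Gab1 gave 12782, 14356 and 14684 and the PI3-kinase gene Pik3ca 8557, 8961 and 13915. Shc3 (96.2 ± 18.2) and Dok5 (53.9 ± 40.4), adaptor genes known from neurons, were below background on every array. Most of these genes serve many receptors, so their signal is not specific to Ret.

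Genes known as targets of Ret signalling in the ureteric tip were above background for 8 of 11 measured, beside 55.6% of all named genes. Whether Ret or another receptor acted on these genes was not tested. The feedback inhibitor genes Spred2 (7256, 6187 and 8052 in replicates 3, 8 and 9), Dusp6 (6813, 8259 and 5756) and Spry1 (3780, 3418 and 2902) were each within a log2 range of 0.52. The ETS factor gene Etv5 gave 2117, 4165 and 2139 and was high in replicate 8. Of the 8 targets above background, 2, 3 and 3 were highest in replicates 3, 8 and 9. Its relative Etv4 was below background on every array (145, 109 and 30.4), as were the chemokine receptor gene Cxcr4 (276, 153 and 98.5) and Vsnl1 (301, 172 and 452). Wnt11, a ligand gene of the bud tip singled out after its values were seen, gave 539, 513 and 582, a log2 range of 0.18. Mmp14, a matrix protease gene likewise singled out, was the 1 target above background with a range of at least 1 (389, 713 and 2494).

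Regulators that promote expression of Gdnf or Ret or activity of the pathway were above background for 15 of 24 measured, close to the 55.6% of all named genes. Those above background included Ctnnb1 (49403 ± 8255), the gene of beta-catenin, the angiotensin receptor gene Agtr2 (8222 ± 1446), the integrin gene Itga8 (5914 ± 2363) and the coactivator gene Eya1 (4920 ± 1933). Pax8 (146, 243 and 147 in replicates 3, 8 and 9), Hoxd11 (104, 155 and 127), the ligand gene Gdf11 (61.3, 61.2 and 151) and the retinoic acid receptor gene Rara (43.5, 175 and 270) were below background on every array. Genes that restrain the pathway were above background for 9 of 11 measured, beside 55.6% of all named genes. These 9 included the receptor phosphatase genes Ptprs (19507, 18495 and 20821) and Ptprf (11573, 15937 and 19535), the guidance gene Slit2 (6112, 7610 and 10483) and its receptor gene Robo1 (2241, 3023 and 2707). Slit3 (228, 129 and 207) and Robo2 (9.39, 48.9 and 42.9) were below background on every array.

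**Figure D4:**
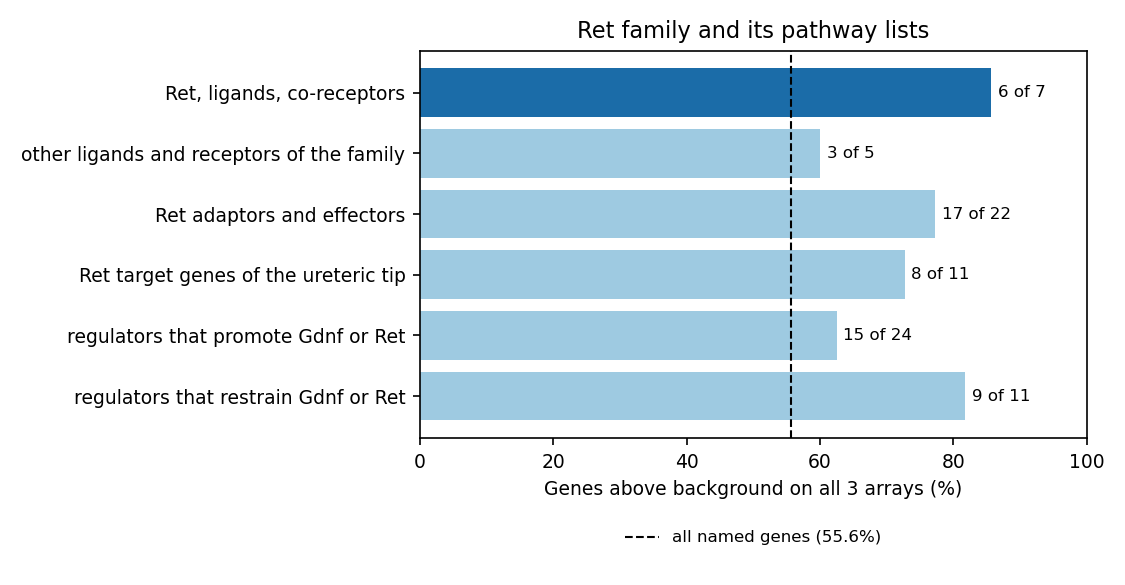
Percent of measured genes above background on all 3 arrays for the 7 family genes (dark bar) and for 5 lists of pathway genes (light bars), with the number of genes beside each bar and a dashed line at the 55.6% of all named genes. All bars end right of the line, with 85.7% for the 7 family genes and 62.5% for the regulators that promote Gdnf or Ret. The genes were chosen with earlier results of these data known, so the position of a bar beside the line is no test of an excess.

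The reach of labelled RNA from the 3′ end bears on probe sets that lie away from it. The signal ratio of control probe sets at the 3′ over the 5′ end was 18.9, 15.1 and 16.4 for Gapdh and 7.45, 6.5 and 4.0 for Actb in replicates 3, 8 and 9. The part of probe position in the disagreement between the probe sets of Ret, Gfra1 and Gfra2 was not tested.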

How the data were processed

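The deposited values are linear signal intensities, 1 per probe set and array, for 45101 probe sets of 3 arrays, and GCOS is named without version or settings per the submitters' processing notes. The 2% trimmed mean was 1500 on each array, so the values had been scaled to a common mean; which algorithm and background step were used is not given in the sources used here. The platform annotation supplied gene names: 34958 probe sets had 1 symbol, 932 had several and 9211 are unnamed here. Entrez IDs of 34754 matched the RefSeq gene table of GRCm38.p6, which changed no symbol, and all 7 genes matched. Promoter windows are from RefSeq.

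Values were taken as log2(signal + 1), and levels are given as linear signal, mean ± SD of 3 arrays. With 1 group there was no comparison between conditions and no test, and the number of arrays limits precision. Background was the 95th percentile of 43 measured of 50 listed reference genes. The background call was tested on simulated data. Members and gene lists were chosen with earlier results of these data known. All members are named; from each pathway list up to 4 genes with the highest mean signal above background and up to 4 below background on every array; from marker lists up to 3, except where a gene is said to have been singled out or a defining marker is given as below background. List genes without a probe set of their own were not analysed here. Alternatives were the 90th and 99th percentile, at least 2 arrays, quantile normalization, averaging over all probe sets of a gene, pseudocounts of 16 and 64, no probe sets ending in _x_at or _s_at, no filter, centring, and leaving out each replicate. Python 3.11.15, pandas 2.3.3, NumPy 2.4.6 and matplotlib 3.10.9 were used.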

Additional observations from a re-analysis of the deposited data

How the results depend on the processing

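The number of family genes above background was 6 of 7 with the 90th percentile, presence on at least 2 arrays, quantile normalization, no probe sets ending in _x_at or _s_at, and without each replicate in turn, and also in a setting added after seeing the data that left the exocrine pancreas genes out of the reference list. In these settings the share of all named genes above background lay between 52.5% (no _x_at or _s_at) and 61.3% (at least 2 arrays). The number of family genes was 4 with the 99th percentile (Ret and Gfra3 lost, 46.9% of all named genes above background) and 3 after averaging over all probe sets of a gene (Ret, Gfra1 and Gfra2 lost, 43.0%), which brings in probe sets below background. After that averaging the other ligands and receptors had 1 of 5 genes above background and the genes that restrain the pathway 5 of 11, beside 43.0% of all named genes. The counts of the other 3 pathway lists stayed within 1.5 times. No family gene above background reached a log2 range of 1, except that without a filter on low values 1 gene (Artn) did. Of 49 mean levels recomputed, 46 moved by no more than 1 SD. The 3 that moved further were those of Ret, Gfra1 and Gfra2 with the mean of their probe sets, at 8.46, 7.74 and 8.71 on the log2 scale, against 9.03, 10.78 and 12.04 with the brightest. A comparison with an earlier reference list was not run, since its table was not used here. No paired analysis was possible because there is 1 group. In the main setting Ret lay above background on each array, by a small margin in replicates 3 and 9 (1.29 and 1.23 times) and by 2.14 times in replicate 8. Artn lay under background on each array.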
